A study of Mus musculus with 19 samples.

Results

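Oxidative phosphorylation is carried out by 5 protein complexes in the inner mitochondrial membrane, and the genes described here encode their subunits and some of the factors that assemble them. Members were protein-coding genes whose symbol in GENCODE M21 began with Nduf, Uqcr, Uqcc, Cox4 to Cox8, Atp5 or mt-, or was Sdha, Sdhb, Sdhc, Sdhd or Cyc1, and whose count reached 5 or more in 50% or more of the libraries. Of 110 genes that fitted these names, 104 passed the count filter, among 19297 genes that passed it in all. The 104 members fell into complex I (42 genes), complex II (4 genes), complex III (10 genes), complex IV (18 genes), complex V (16 genes) and a set of assembly factors and others (14 genes). The nuclear genome encoded 96 of them and the mitochondrial genome 8.

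RNA was taken from the CA1 region of the dorsal hippocampus of 7-month-old mice and sequenced as polyadenylated RNA in 19 libraries. WT control (n = 6) were wild-type littermates, to which a control oligonucleotide was given. APP control (n = 6) were APPPS1-21 mice given that oligonucleotide too. APP anti-miR-mix (n = 7) were APPPS1-21 mice that received inhibitors of miR-148a-3p, miR-181a-5p and miR-146a-5p. All 3 groups had lipid nanoparticles injected into the hippocampus. APPPS1-21 mice carry mutant human APP under the neuronal Thy1 promoter and deposit amyloid, so the model adds transgene expression in neurons to the amyloid itself. The titles of the wild-type libraries also name the mixture beside the word control, and the study's reading of these animals as controls was followed. Total counts ran from 19362343 to 37018917 per library. The labels do not say how the animals relate to one another, so the p-values measure the spread between these libraries. The CA1 and neuron marker lists were detected in every group, with summed levels of the 4 CA1 genes between 19548 and 32584 normalized counts.

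In the respiratory chain, electrons enter at complex I from NADH and at complex II from succinate. They pass by way of ubiquinone, complex III and cytochrome c to complex IV, where oxygen is reduced. Complexes I, III and IV pump protons, and the ATP synthase, complex V, uses the gradient to make ATP. Complexes I, III, IV and V are built from subunits of both genomes and complex II from nuclear subunits alone, and neurons draw most of their ATP from this pathway.

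Mitochondrially encoded members made up more of each library than the nuclear members did. The 8 mitochondrial genes took 3.30% ± 0.60 of all counts (SD, n = 19 libraries) and the 96 nuclear genes 0.941% ± 0.053. Counting error was small beside this, since in WT control 2, the library with the fewest counts, the nuclear share was 0.997% with a Wilson 95% interval from 0.993% to 1.00%. Intervals of this kind cover counting error only. Per length, on the TPM scale (counts divided by summed exon length, scaled to the same total in every library), mt-Co1 was at 26129 ± 3578 TPM (SD, n = 19) and mt-Cytb at 26093 ± 3059 TPM. These genes encode the catalytic subunit of complex IV and the cytochrome b of complex III. Among the complex I genes, mt-Nd1 was at 21525 ± 5236 TPM and mt-Nd5 at 7512 ± 1543 TPM. The highest nuclear members were Cox8a at 1691 TPM, Cox6a1 at 1322 TPM, Atp5b at 1181 TPM and Atp5a1 at 1083 TPM.

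Not all of the 13 protein-coding genes of the mitochondrial genome could be read from these counts. mt-Co2, mt-Co3, mt-Nd4l and mt-Atp8 had a count of 0 in all libraries, which allows at most 3 counts, or 1.55e-05% of the shallowest library. mt-Atp6 reached 1 count at most, and mt-Nd3 passed the filter with no more than 29 counts. Every 50-base stretch of the mt-Co2 transcript was found again in another annotated transcript, as were 99.9% of those of mt-Co3, 99.5% of mt-Atp6, 98.8% of mt-Nd4l and 98.0% of mt-Nd3. The sharing transcripts were copies of mitochondrial sequence on chromosome 1, annotated as pseudogenes between 24611535 and 24616197 (GRCm38), whose own counts did not exceed 30. For mt-Atp8 the share was 0.0%, but only annotated transcripts were compared. Sequence between the annotated copies was not searched, so its count of 0 cannot be read as absence. For the nuclear gene Cox8c, which also had no count, the share was 0.0%. mt-Nd4 shared 62.2% and mt-Co1 51.1% of their stretches, while mt-Nd1, mt-Nd6 and mt-Cytb shared 0.0%. mt-Nd6 lies on the minus strand. Strandedness is not given, so reads from the opposite strand could not be told apart there. Read coverage along the transcripts was not measured here, and no order among mt-Co1, mt-Cytb and mt-Nd4 was read from their levels. The opening 50 bases of mt-Co2 (chrM:7013-7062, plus strand, from the GENCODE M21 transcript) show the kind of stretch that occurs in both places, here also in the copy Gm28661.
mt-Co2: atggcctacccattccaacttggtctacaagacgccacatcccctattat

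**Figure D1:**
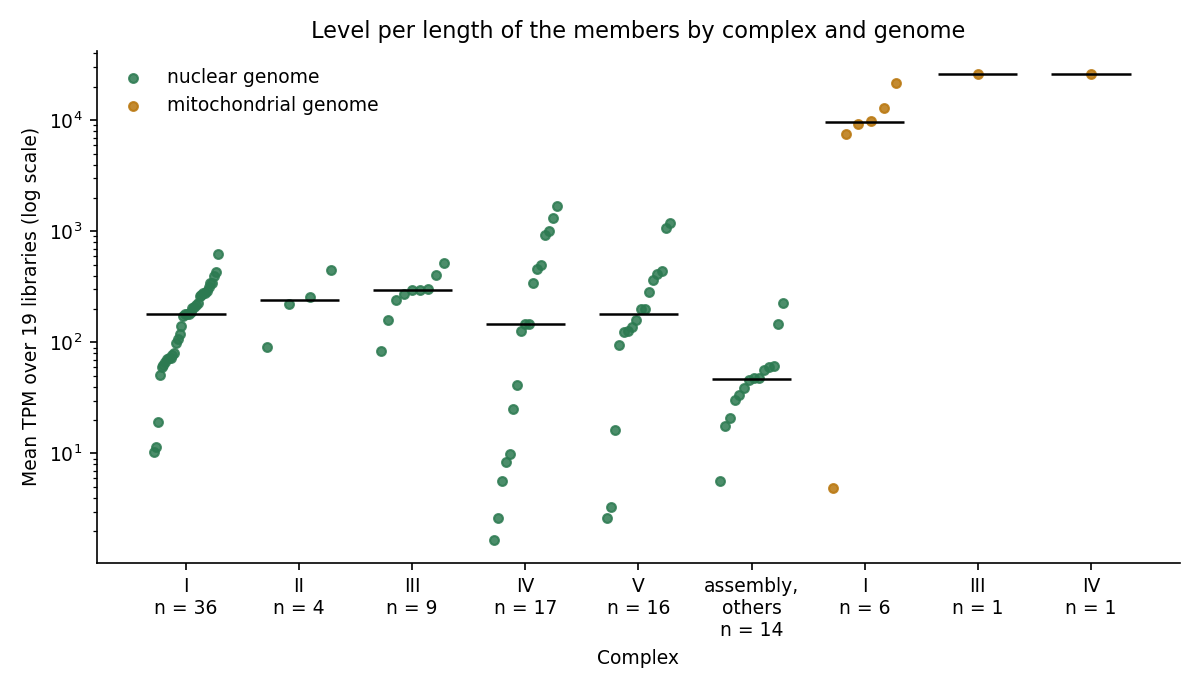
Mean TPM of each of the 104 members over the 19 libraries (log scale), by complex and genome, with a bar at the median of each set. The mitochondrial members lie above all nuclear members except mt-Nd3, which is at 4.93 TPM, and the nuclear members of complex IV span from 1.68 TPM for Cox7b2 to 1691 TPM for Cox8a.

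Nuclear levels within a complex were uneven. In complex I the nuclear members ran from Ndufb4 at 10.4 TPM to Ndufb9 at 621 TPM, with a median of 179 TPM. 18.3% of the 50-base stretches of Ndufb4 occurred in other transcripts. The 4 subunits of complex II ran from Sdhc at 91.4 ± 6.2 TPM to Sdha, the flavoprotein that oxidizes succinate, at 452 ± 23 TPM. Among the assembly factors and others, Ndufa4l2 was lowest at 5.61 TPM and Uqcc2, which helps assemble complex III, highest at 229 TPM. In complex III, Uqcrb was lowest at 83.6 TPM and Uqcr10 highest at 515 TPM, and in complex V Atp5l was lowest at 2.65 TPM and Atp5b highest. With the length of the longest transcript in place of the summed exons, Uqcrh became the highest member of complex III and Cox4i1 the highest of complex IV. The same members were lowest in each complex under both lengths.

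Several subunits of complex IV exist as paralogs, one of which usually serves most tissues while the other is known from muscle, testis or lung. Cox4i1 was at 1002 TPM against 5.70 TPM for Cox4i2. Cox6a1 was at 1322 TPM against 41.2 TPM for the muscle form Cox6a2, and Cox6b1 was at 932 TPM against 8.44 TPM for Cox6b2, the form known from testis. Cox7a2 was at 456 TPM against 9.85 TPM for the muscle form Cox7a1, and Cox8a was at 1691 TPM against 2.6 TPM for Cox8b. The c ring of complex V has 3 genes that encode the same mature protein. Atp5g3 was at 418 TPM, Atp5g1 at 16.1 TPM and Atp5g2 at 3.28 TPM, of which Atp5g2 shares 38.3% and Atp5g1 11.1% of their stretches with other transcripts. Ndufa4, a subunit of complex IV despite its name, was at 494 TPM and its paralog Ndufa4l2 at 5.61 TPM.

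The spread among libraries differed between the genomes. The deposited normalized table had been adjusted by the authors for a whole number from 1 to 5 per library, whose meaning is not stated and which can be read back from the table. The mitochondrial share of counts moved with this number. It ran from 2.58% to 2.89% in the 3 libraries numbered 1, from 2.45% to 2.85% in the 5 numbered 2, from 3.26% to 4.12% in the 5 numbered 3 and from 3.73% to 4.00% in the 5 numbered 4, and it was 3.66% in the library numbered 5. The nuclear share moved the other way, with medians of 0.986%, 0.995%, 0.917% and 0.881% for the numbers 1 to 4 and a value of 0.899% for the number 5. Every group held low and high numbers, with a mean of 2.83 for WT control, 2.83 for APP control and 2.71 for APP anti-miR-mix. The numbers 3 to 5, with the higher mitochondrial shares, were not spread evenly. They belonged to 3 of 6 WT control, 4 of 6 APP control and 4 of 7 APP anti-miR-mix libraries. Mitochondrial ribosomal RNA moved in the same direction, from 0.377% to 0.490% of counts in the libraries numbered 1 or 2 and from 0.495% to 0.733% in those numbered 3 to 5. Total counts overlapped, from 19362343 to 30690653 in the former and from 26628147 to 37018917 in the latter.

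Within every group, the libraries numbered 3 to 5 had higher mitochondrial shares than those numbered 1 or 2, a division chosen after the shares had been seen and therefore given without a test. The low shares of WT control ran from 2.56% to 2.85% and the high ones from 3.26% to 3.86%. Those of APP control ran from 2.45% to 2.58% and from 3.31% to 3.87%, and those of APP anti-miR-mix from 2.46% to 2.89% and from 3.73% to 4.12%. All 8 mitochondrial members were higher in the libraries with the higher numbers, by a median of 0.66 on the log2 scale after averaging over the groups. For 6 of the 8 the library sets did not overlap, as was so for 3.04% of all genes in that direction. The 8 members make up the share on which the division was drawn, so their difference follows in part from it. The differences were 0.80 for mt-Nd2, 0.78 for mt-Nd6, 0.73 for mt-Nd1, 0.58 for mt-Nd5, 0.44 for mt-Co1 and 0.36 for mt-Cytb. The sets overlapped for mt-Nd4 (0.35) and for mt-Nd3, whose counts were low. Of the 96 nuclear members, 80 were lower, by a median of -0.13 over all 96, beside a median of -0.12 for all protein-coding genes with transcripts under 1000 nt and of -0.01 for all genes. Of the nuclear members 5 lay entirely below, among them Atp5d at -0.25, a subunit of the F1 stalk, where 0.793% of all genes did. Against this trend, Ndufaf4 (0.43) and Atp5s (0.32) lay entirely above.

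**Figure D2:**
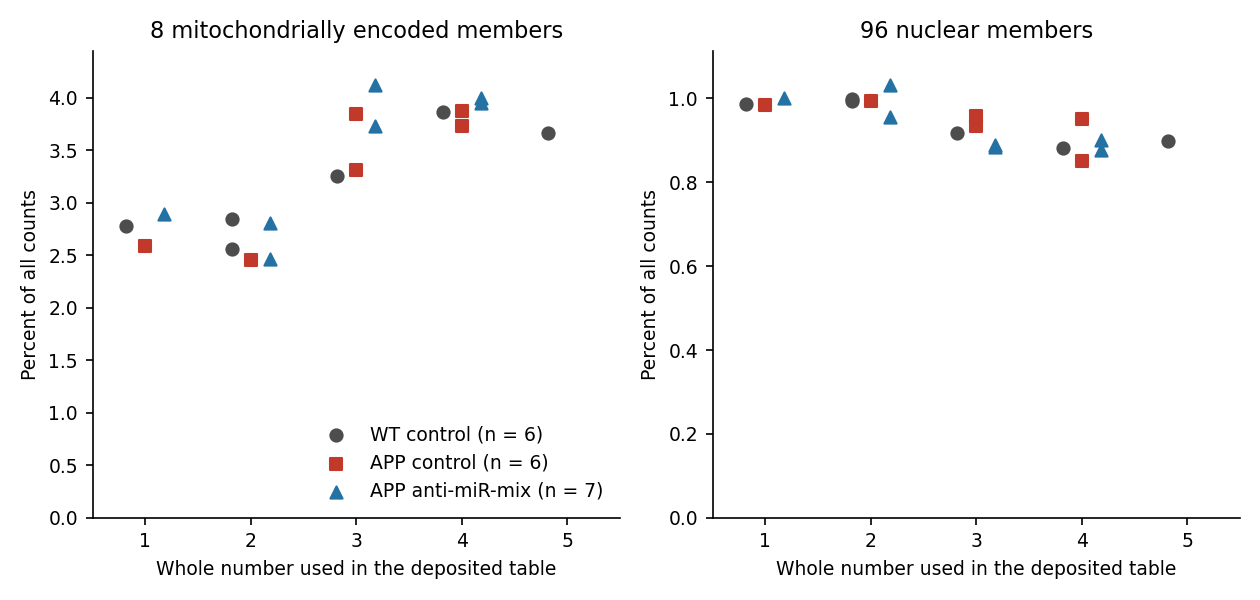
Share of all counts (percent, y axis from 0) taken by the 8 mitochondrially encoded members (left) and the 96 nuclear members (right), by the whole number that the deposited table adjusts for, with a point for each of the 19 libraries and a symbol for each group. The mitochondrial share stays at or below 2.89% for the numbers 1 and 2 and at or above 3.26% for the numbers 3 to 5, in all 3 groups.

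This spread set the precision of the group comparisons. The standard deviation within groups, on the log2 scale of normalized counts, had a median of 0.38 over the mitochondrial members and 0.12 over the nuclear members, which was near the median of 0.12 over the 8687 genes with a mean of at least 500 normalized counts. The spread was smallest in complex II, with a median of 0.06. The median standard error of a log2 fold change between APP control and WT control was accordingly 0.20 for mitochondrial and 0.07 for nuclear members.

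The comparison of APP control with WT control asked how the transgenic mice differed from their littermates. No member passed the threshold of an adjusted p of 0.05 in DESeq2 (Wald test across all genes, Benjamini-Hochberg), where 4.71% of all genes did, and edgeR's quasi-likelihood test likewise called 0, where it called 3.22% of all genes. At an unadjusted p under 0.05 there were 8 members with DESeq2 and 5 with edgeR, where DESeq2 gave 13.7% and edgeR 13.4% of all genes. The nuclear members had a median log2 fold change of -0.01, beside -0.01 over all genes, and 40 of 96 were above 0. The mitochondrial members had a median of 0.03, and 6 of 8 were above 0. That median ran from -0.03, without WT control 3, to 0.11, without APP control 2, so its direction rested on single libraries. For 78 of the 96 nuclear members the 95% interval of the change lay within 0.25 on either side of 0 on the log2 scale.

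The member closest to the threshold in that comparison was Cox7a2l (chromosome 17, 83501918 to 83517330, minus strand). Its protein helps to join complexes III and IV into supercomplexes. WT control libraries had 1555, 1428, 1416, 1437, 1493 and 1260 normalized counts, and APP control libraries 1630, 1685, 1601, 1674, 1558 and 1485. The groups overlapped by a single APP control library, at 1485, which lay below the highest of WT control. The log2 fold change was 0.16 ± 0.06 (SE), with an adjusted p of 0.059 by DESeq2, and the value in APP anti-miR-mix lay between, at 1544 ± 94 normalized counts (SD, n = 7). Cox7a2l passed in 7 of 32 alternative settings, among them total-count size factors, the stricter count filter, limma on the deposited table, and the omission of WT control 1, of WT control 1 and 5 or of APP control 6. It shares 13.8% of its stretches with the pseudogene Gm6969. Ndufs1, the largest iron-sulfur subunit of complex I, was the next, at -0.12 ± 0.04 with an adjusted p of 0.106. Others with a small unadjusted p in their complex were Atp5a1, a catalytic-head subunit of complex V, at -0.09 ± 0.04, Cox5a of complex IV at -0.09 ± 0.05 and the complex I assembly factor Ndufaf5 at -0.10 ± 0.05. Their adjusted p values were 0.251, 0.429 and 0.306 by DESeq2.

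In normalized counts, mt-Nd1 was at 142627 ± 37438 in WT control (SD, n = 6), at 144399 ± 40344 in APP control (n = 6) and at 150245 ± 42339 with the mixture (n = 7). mt-Nd2 was at 93150 ± 28453, 89591 ± 25852 and 99328 ± 31300 in the same order, and mt-Nd5 at 93342 ± 22490, 94368 ± 20028 and 102467 ± 24149. These genes encode membrane subunits of complex I, and all groups overlapped over most of their range. mt-Cytb was at 206500 ± 24471, 212146 ± 34202 and 214077 ± 30951. mt-Co1 was at 278120 ± 38376, 287799 ± 51058 and 289930 ± 48494. The differences between group means were smaller than the standard deviation within a group for each of these 5 genes.

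The comparison of APP anti-miR-mix with APP control asked what inhibition of the 3 microRNAs did in transgenic mice. No gene among all those tested passed (0% called), by DESeq2 or by edgeR. At an unadjusted p under 0.05 DESeq2 gave 0 of the 104 members and edgeR 0, where 2.86% of all genes reached it with DESeq2 and 2.96% with edgeR. The nuclear members had a median log2 fold change of -0.02, and 22 of 96 were above 0. The median over all genes was 0.00, and over protein-coding genes with transcripts under 1000 nt it was -0.02. All 8 mitochondrial members were above 0, with a median of 0.05 against a median standard error of 0.19. The direction of that median was not stable, since it was -0.01 without APP control 1, -0.03 without APP control 2 and -0.0047 without APP anti-miR-mix 4, and it was 0.13 without APP anti-miR-mix 1. For 84 of the 96 nuclear members, but for 1 of the 8 mitochondrial members, the 95% interval lay within 0.25 on either side of 0. The members with the smallest unadjusted p in their complex included Atp5c1, in the central stalk of complex V, at -0.06 ± 0.03 (SE), Ndufa10 and Ndufa5, accessory subunits of complex I, at -0.06 ± 0.05 and -0.09 ± 0.07, and Cox6c of complex IV at -0.07 ± 0.05. A fold change of the size of the mitochondrial median was not detectable at this spread.

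With the whole number of the deposited table as a factor in the DESeq2 model, the median standard error of the mitochondrial members was 0.07 in this comparison, and their median log2 fold change was 0.11, with 8 of 8 above 0 and 0 called. mt-Nd2 was at 0.21 with a 95% interval from 0.05 to 0.38, and mt-Nd5 at 0.17 with an interval from 0.05 to 0.29. Both had an adjusted p of 1.00 by DESeq2. mt-Co1 was at 0.06 (interval -0.03 to 0.14) and mt-Cytb at 0.06 (interval -0.05 to 0.16). In the same model the mitochondrial members had a median of -0.05 in APP control against WT control, where 2 of 8 were above 0, and of 0.03 in APP anti-miR-mix against WT control. The direction in APP control against WT control thus turned with the factor.

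The comparison of APP anti-miR-mix with WT control held the only members that passed. It shares its libraries with the other comparisons, and its difference is the sum of theirs. DESeq2 called 4 of 104 members where it called 8.95% of all genes. Of these 3 were lower, where 3.36% of all genes were, and 1 was higher, where 5.59% were. edgeR called 2 of the members, Ndufs1 and Cox6b2, and 6.06% of all genes. At an unadjusted p under 0.05 there were 17 members with DESeq2 and 13 with edgeR, where DESeq2 gave 19.4% and edgeR 18.6% of all genes. The nuclear members had a median log2 fold change of -0.04, beside -0.02 over all genes, and 24 of 96 were above 0. The mitochondrial members had a median of 0.08 against a median standard error of 0.19, 8 of 8 were above 0, and 0 passed. With total-count size factors the median over the nuclear members was 0.00, and the median in APP control against WT control was 0.02.

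Ndufs1 (ENSMUSG00000025968, chromosome 1, 63143596 to 63176833) lies in the arm of complex I that takes electrons from NADH. WT control libraries had 4182, 4450, 4301, 4454, 4296 and 4498 normalized counts. APP control libraries had 4122, 3639, 3851, 3867, 4314 and 4327. The 7 APP anti-miR-mix libraries ran from 3791 to 4199 with a median of 3891, so that a single library, APP anti-miR-mix 2, reached the range of WT control. The log2 fold change against WT control was -0.15 ± 0.04 (SE), with an adjusted p of 0.0069 by DESeq2 and 0.047 by edgeR. Ndufs1 was called in 30 of 32 alternative settings, and the exceptions were total-count size factors and the deposited table.

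Ndufa9 (ENSMUSG00000000399, chromosome 6, 126821721 to 126849136) encodes an accessory subunit where the arms of complex I meet. WT control libraries ran from 2552 to 3024 normalized counts with a median of 2840, and APP anti-miR-mix libraries from 2381 to 2819 with a median of 2484. The log2 fold change was -0.15 ± 0.05 with an adjusted p of 0.035 by DESeq2 and 0.11 by edgeR. Uqcrc2 (ENSMUSG00000030884, chromosome 7, 120635176 to 120659524) encodes a core protein of complex III. WT control libraries ran from 5514 to 6051 with a median of 5831, and APP anti-miR-mix libraries from 4765 to 5886 with a median of 5126. The log2 fold change was -0.15 ± 0.05 with an adjusted p of 0.028 by DESeq2 and 0.099 by edgeR. Ndufa9 was called in 19 and Uqcrc2 in 18 of 32 alternative settings, and Uqcrc2 was not called with the whole number as a factor (-0.13, adjusted p = 0.084, DESeq2). Both genes overlapped between the groups, and 17.6% of the stretches of Uqcrc2 are shared with Pdzd9.

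Cox6b2 (ENSMUSG00000051811, chromosome 7, 4751792 to 4753094) was the only member that was called higher. It was a low-abundance gene, with 33 to 96 raw counts per library. WT control libraries had 64.8, 49.9, 52.7, 41.2, 61.1 and 52.6 normalized counts, and APP control libraries 64.0, 84.2, 86.5, 63.4, 51.5 and 66.0. APP anti-miR-mix libraries had 72.4, 67.1, 73.3, 69.8, 69.0, 93.6 and 69.7. All 7 lay above all 6 of WT control, the only member of which this was so in either direction, where 3.42% of all genes had no overlap. The log2 fold change was 0.45 ± 0.15 with an adjusted p of 0.027 by DESeq2 and 0.044 by edgeR. Cox6b2 was called in 25 of 32 alternative settings, and the call was lost with the whole number as a factor (0.455, adjusted p = 0.078, DESeq2) and without APP anti-miR-mix 6, the highest library (0.39, adjusted p = 0.090), or without WT control 2, 4 or 6 (0.44, 0.38 and 0.45). Its difference on the log2 scale was 0.36 ± 0.15 in APP control against WT control, with an adjusted p of 0.189 by DESeq2.

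**Figure D3:**
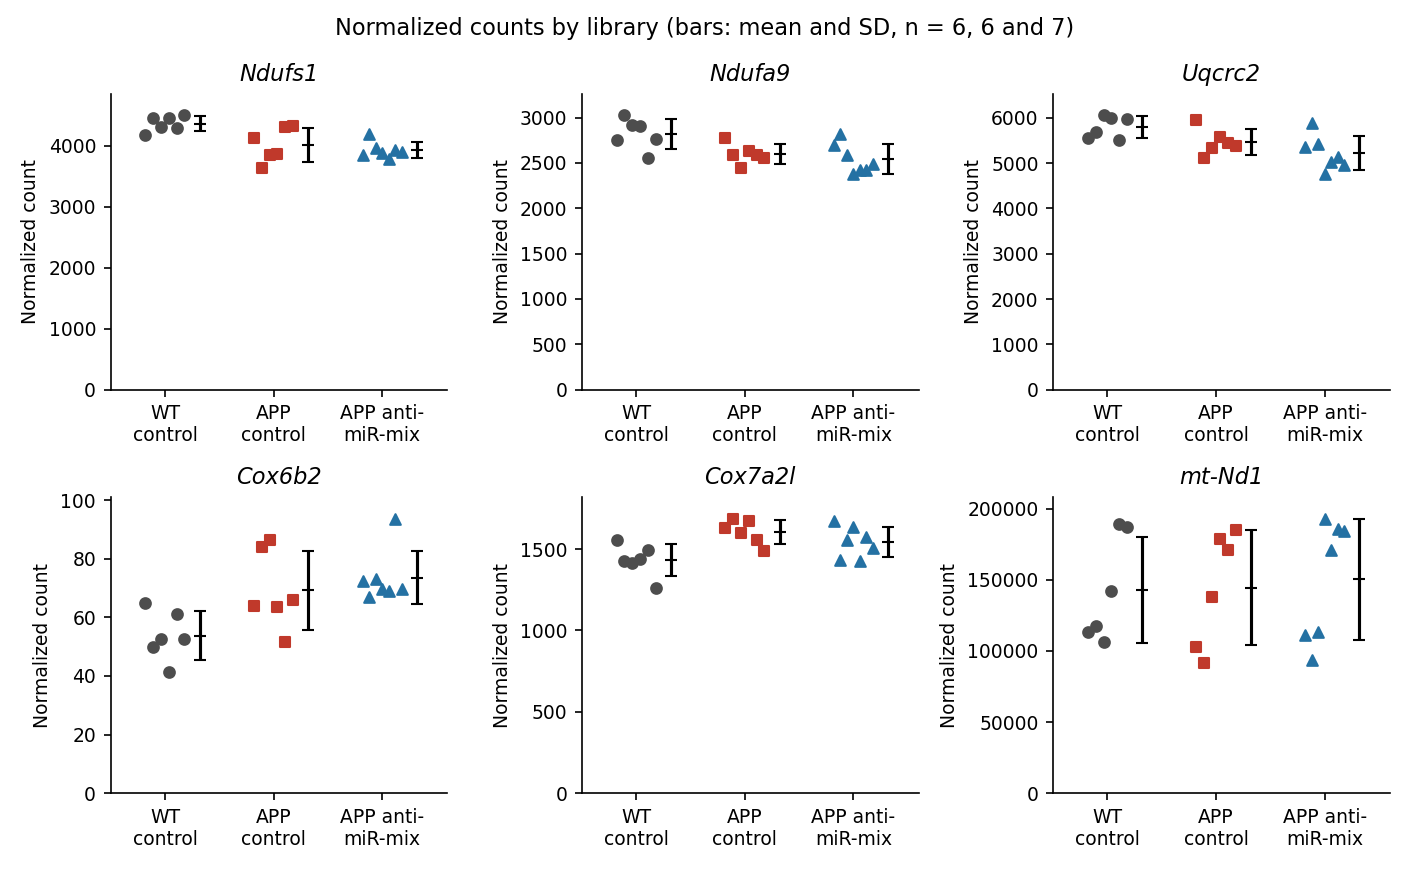
Normalized counts (y axes from 0) of the 4 members called in APP anti-miR-mix against WT control, of Cox7a2l and of mt-Nd1, with a point per library and the mean and SD of each group beside it (n = 6, 6 and 7). The APP anti-miR-mix points of Cox6b2 lie above all WT control points, and the mt-Nd1 points spread widely inside every group, from 91496 to 192729 over all libraries.

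The nuclear members were also described by role, in sets formed after the values had been seen, in which no gene passed the threshold except those named above. All 7 nuclear genes of the catalytic core of complex I were below 0, with a median log2 fold change of -0.07 in APP control and -0.09 with the mixture, while the 29 nuclear accessory subunits had medians of 0.00 and -0.03. The core proteins Uqcrc1 and Uqcrc2 of complex III had a median of -0.08 in APP control, and the redox subunits Cyc1 and Uqcrfs1, which hold its cytochrome c1 and its iron-sulfur centre, had -0.07. The 11 nuclear complex IV genes other than the tissue forms had medians of 0.01 and -0.02. The 16 members of complex V had medians of -0.05 and -0.07, and the catalytic Atp5b was at 36637 ± 1643 normalized counts in WT control (SD, n = 6) against 34571 ± 2511 in APP anti-miR-mix (n = 7), with a log2 fold change of -0.08 ± 0.05 and an adjusted p of 0.365 by DESeq2.

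Complex II showed narrow intervals. The normalized counts of Sdha were 13557 ± 488 in WT control (SD, n = 6), 12947 ± 243 for APP control (n = 6) and 12960 ± 515 for APP anti-miR-mix (n = 7). Sdhb, the iron-sulfur subunit, had 3673 ± 124, 3445 ± 241 and 3402 ± 197. Its log2 fold change was -0.09 ± 0.05 for APP control and -0.11 ± 0.05 for APP anti-miR-mix, both against WT control, with adjusted p of 0.417 and 0.154 by DESeq2. The membrane anchors Sdhc and Sdhd were at -0.01 ± 0.05 and -0.05 ± 0.03 in the latter comparison. All 4 genes had intervals within 0.25 on either side of 0 in every comparison.

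Several tissue forms of complex IV, most of them genes with few counts, had the larger fitted changes. In APP anti-miR-mix against WT control, Cox4i2 was at 0.50 ± 0.19 (adjusted p = 0.085, DESeq2), Cox6a2 at 0.34 ± 0.16 (adjusted p = 0.186) and Cox7a1 at -0.43 ± 0.19 (adjusted p = 0.159). Cox4i2 had 25.9 ± 7.9 normalized counts in WT control against 37.0 ± 4.1 with the mixture, and it passed without WT control 1, WT control 3, or WT control 1 and 5, and on the deposited table. Cox7b2 and Cox8b, at means below 8 normalized counts, received no adjusted p there. Ndufa4l2 was at 0.37 ± 0.17 (adjusted p = 0.191), while Cox4i1, Cox6a1, Cox6b1, Cox7a2, Cox8a and Ndufa4 lay between -0.05 and 0.04 in that comparison.

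**Figure D4:**
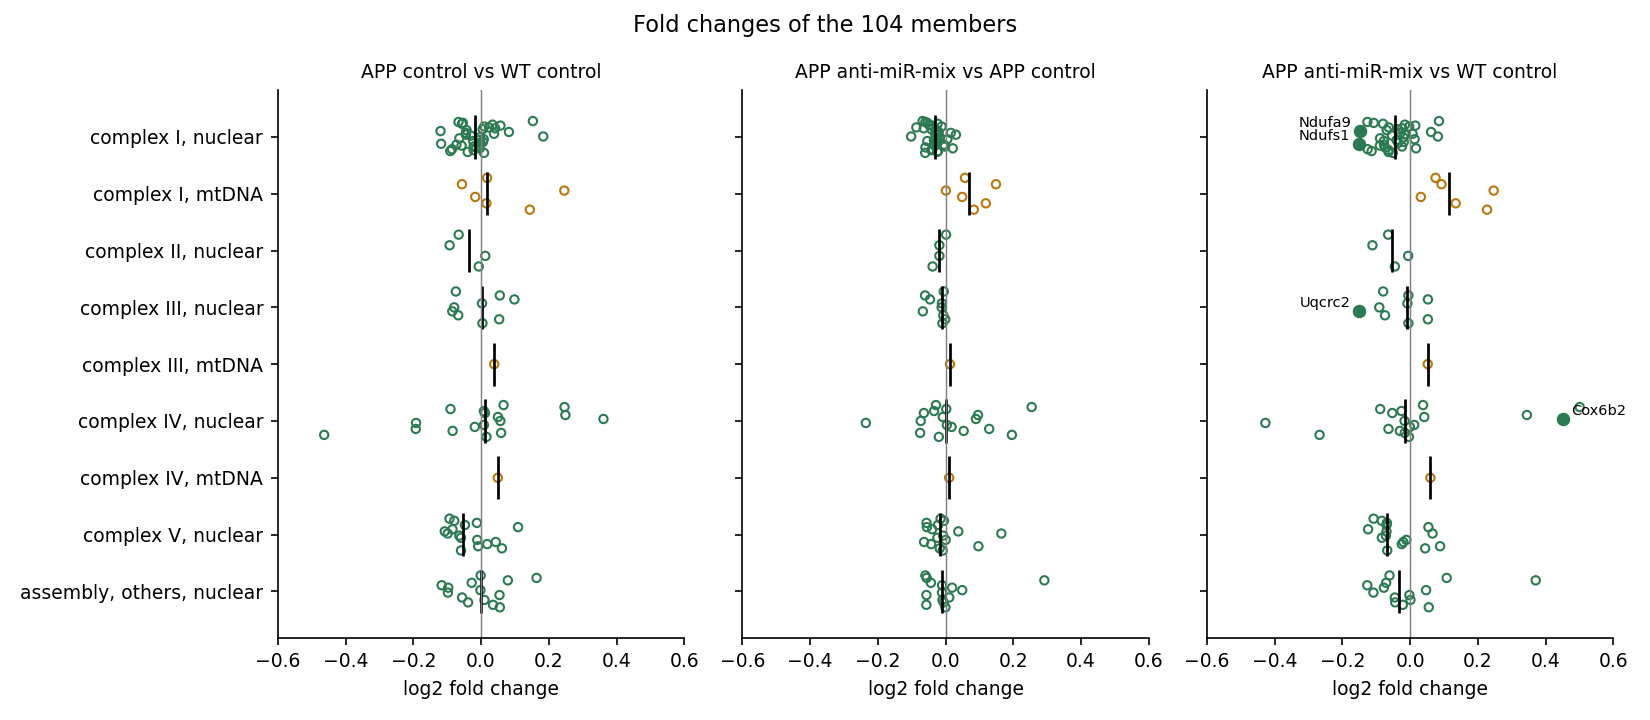
Log2 fold change of each of the 104 members in the 3 comparisons, by complex and genome, with a bar at the median of each set and filled points for an adjusted p under 0.05 by DESeq2. Most nuclear members lie close to 0, the 4 filled points are all in the comparison of APP anti-miR-mix with WT control, and the mitochondrial members of complex I are spread to the right of 0 there.

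Transcript length went along with the direction. Against WT control, the 51 nuclear members whose longest transcript has at least 1000 nt had a median log2 fold change of -0.04 for APP control and -0.06 for APP anti-miR-mix. The 45 shorter ones had 0.01 and -0.02. Over all protein-coding genes the medians of the same length classes were -0.01 and -0.02 for the longer and 0.05 and 0.03 for the shorter transcripts. The shares of small transcripts also moved with the whole number of the libraries, as given above. The part of length in the results was not tested.

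Other genes of mitochondrial energy supply were taken from lists that were set down with earlier results of these data known. Of 19 genes of pyruvate dehydrogenase and the citric acid cycle, 2 passed between APP control and WT control (1 lower, 1 higher) and 4 between WT control and APP anti-miR-mix (3 lower, 1 higher), where 4.71% and 8.95% of all genes did, with medians of -0.10 and -0.10. edgeR called 0 of these genes in the former and 2, Pdha1 and Suclg2, in the latter. Pdha1, the catalytic subunit of pyruvate dehydrogenase, fell by 0.13 on the log2 scale in both (adjusted p = 0.0018 and 5.5e-04, DESeq2), from 5806 ± 230 normalized counts in WT control to 5299 ± 183 for APP control and 5294 ± 96 for APP anti-miR-mix. Its partner Pdhb was at -0.10 and -0.13, and passed in the latter alone (adjusted p = 0.0099). Suclg2, a GTP-forming succinate-CoA ligase subunit, rose by 0.30 and 0.29, while Sucla2, its ATP-forming counterpart, was at -0.14 and -0.18 and passed in the latter alone. Among 17 glycolytic genes Hk2, a hexokinase, rose by 0.82 and 0.88, the only one called, and the list had medians of -0.06 and -0.07.

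Of 77 mitochondrial ribosomal protein genes, 0 passed in APP control against WT control (2 at an unadjusted p under 0.05 with DESeq2, 0 called and 1 at that level with edgeR), and 1, Mrpl39, was lower in APP anti-miR-mix against WT control, where edgeR called 0. Of 83 cytosolic ribosomal protein genes 18 passed, all of them higher, in each of these comparisons, where 4.71% and 8.95% of all genes passed, with medians of 0.15 and 0.14. edgeR called 12 in each. Among 24 genes of mitochondrial DNA maintenance and expression Gfm2, a ribosome recycling factor, passed in APP anti-miR-mix against WT control at 0.16, and among 15 genes of electron carriers and coenzyme Q synthesis Coq8a passed there at -0.23 with DESeq2 but not with edgeR. In the 33 assembly factors outside the naming rule and the 14 regulators of mitochondrial biogenesis no gene passed in any comparison with DESeq2 or edgeR. At an unadjusted p under 0.05 DESeq2 gave 2 of the former and 1 of the latter in APP anti-miR-mix against WT control and 0 in the other comparisons, and edgeR gave 0 and 1. Of all genes DESeq2 gave 19.4% and edgeR 18.6% at that level in APP anti-miR-mix against WT control. They gave 13.7% and 13.4% in APP control against WT control, and 2.86% and 2.96% between the 2 transgenic groups. None of the genes in these lists passed between the 2 transgenic groups.

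**Figure D5:**
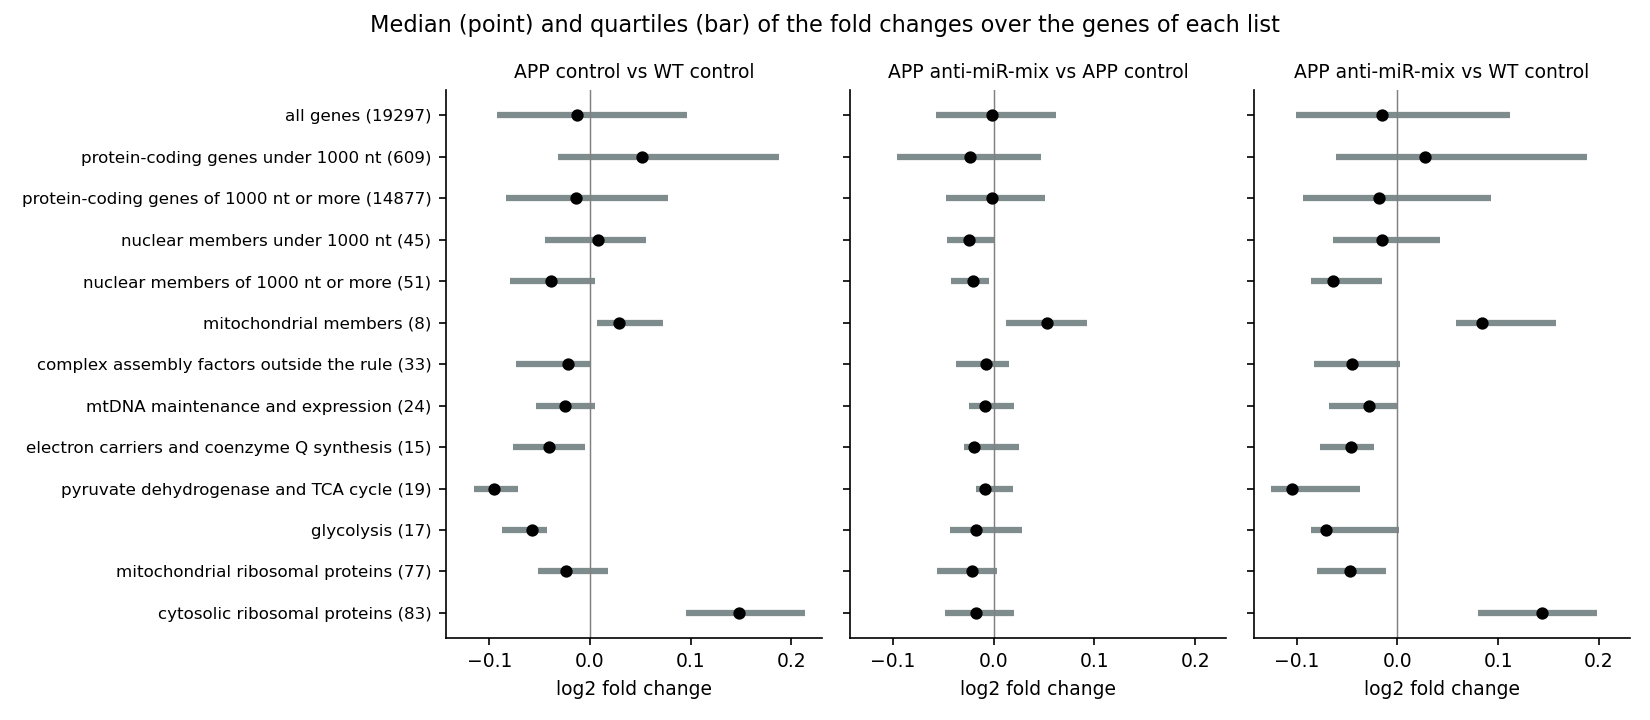
Median (point) and quartiles (bar) of log2 fold changes over the genes of each list, in the 3 comparisons, with the number of genes tested in parentheses. The nuclear members are split by transcript length, at medians of -0.04 (1000 nt or more) and 0.01 (under 1000 nt) in APP control against WT control. The citric acid cycle list lies lower and the cytosolic ribosomal proteins lie higher against WT control, and the mitochondrial members have positive medians.

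Cell type markers moved with the same comparisons. In bulk tissue, fewer cells of a type and less RNA per cell cannot be told apart. All 13 neuron markers were below 0 in APP control against WT control and 2 of them passed (Gad1 and Gad2), with a median of -0.11. Of 6 interneuron markers 5 were below 0 there and Npy passed. In APP anti-miR-mix against WT control 11 of the 13 were below 0 and Gad1 passed, and Npy and Sst passed among the 6 interneuron markers, of which 4 were below 0. Of these genes edgeR called only Gad1 in APP control against WT control, and only Npy and Sst in APP anti-miR-mix against WT control. Summed normalized counts of the 13 neuron markers lay between 336878 and 404124 in WT control, 329107 and 362586 in APP control, and 330928 and 350895 with the mixture. All 6 microglia markers were above 0 in both comparisons, 4 passed in the former and 5 in the latter, and edgeR called 4 in each. Of the 9 markers of plaque-associated microglia tested, 8 passed in the former and 9 in the latter, where edgeR called 7 and 9. Of 6 endothelial and pericyte markers Flt1 alone passed, in both comparisons and with both tools. Of 4 markers of meninges and fibroblasts, 0 passed in the former. In the latter 2 passed, Col1a1 and Col1a2, where edgeR called 0. The 6 microglia markers had sums between 9188 and 14068 in WT control, 12745 and 26671 in APP control, and 17931 and 27526 with the mixture. Of 7 astrocyte markers 5 were above 0 in the former and 7 in the latter, and Gfap passed in both, with sums between 149121 and 195614, 159126 and 217473, and 161635 and 224705 in the same order. No marker of these lists was at 0 in all libraries. The part of these markers in the values of the members was not tested.

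The 3 inhibited microRNAs bind through a seed, bases 2 to 8, and do not share one. Their mature sequences (RefSeq, GRCm38.p6) are shown with the seed in capitals, because the sites below are matched to it.
miR-181a-5p: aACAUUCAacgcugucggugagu
miR-146a-5p: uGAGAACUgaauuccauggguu
miR-148a-3p: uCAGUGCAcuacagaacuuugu

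A 7-base match to a seed was found in the longest annotated 3′ UTR of 11 nuclear members. Those of miR-146a-5p were in Ndufb8, Sdhd, Uqcrh, Uqcrq and Cox7a2l, those of miR-181a-5p in Sdha, Cyc1, Atp5g2 and Atp5l, and those of miR-148a-3p in Cox5b and Ndufaf4. The sites of the complex II genes and of Cox7a2l are shown with the match in capitals (GENCODE M21 transcripts, minus strand, GRCm38, at chr13:74322335-74322362, chr9:50596526-50596553 and chr17:83501982-83502009).
Sdha: tacttctcactgTGAATGTaactagttt
Sdhd: ttcaatttagggAGTTCTCcttgtttgt
Cox7a2l: agctgtgtcaggAGTTCTCctttaataa

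When APP anti-miR-mix was set against APP control, the 11 members with a match had a median log2 fold change of -0.01 and the 85 without had -0.02. Sdha was at 0.00 (95% interval -0.06 to 0.06), Sdhd at -0.04 (interval -0.10 to 0.02) and Cox7a2l at -0.06 (interval -0.16 to 0.05). The widest intervals were those of Atp5g2, at 0.16 (-0.14 to 0.47), and Atp5l, at 0.10 (-0.18 to 0.38), both of low counts. The lists of predicted targets that the study used hold Atp5b for miR-148a-3p and mt-Nd6 for miR-146a-5p among the members. They were at 0.00 ± 0.05 and 0.08 ± 0.22, and Atp5b had no 7-base match in its longest annotated 3′ UTR.

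Nuclear members are known to be regulated in common by the nuclear respiratory factor NRF1, by GABP of the ETS family and by YY1. The promoter table (RefSeq, GRCm38.p6, 250 bases before to 50 after the start) held 77 of the 96 nuclear members, matched by symbol. Ndufs1 and Uqcrc2, called lower against WT control, were not among the 77, so their promoters were not searched. The motif of NRF1, whose matches are in capitals below, was found on either strand in 20 of the 77 (25.97%), against 9.93% of 12082 promoters of tested genes. CCGGAAG, an ETS motif, was found in 18 (23.38%) against 17.26%, and AAGATGGC, a motif of YY1, in 11 (14.29%) against 4.56%. Motifs were searched one by one, with overlaps between them allowed. The NRF1 motif was in 6 of 13 promoters of complex V, 7 of 32 of complex I and 1 of 13 of complex IV. The 250 bases before the start of Sdha, with 3 matches, are shown beside those of Ndufa9, called lower against WT control, and Cox6b2, called higher, which had none of the motifs in these bases. They lie on the minus strand at chr13:74350241-74350490, chr6:126849145-126849394 and chr7:4753095-4753344, and capitals mark the NRF1 matches.
Sdha: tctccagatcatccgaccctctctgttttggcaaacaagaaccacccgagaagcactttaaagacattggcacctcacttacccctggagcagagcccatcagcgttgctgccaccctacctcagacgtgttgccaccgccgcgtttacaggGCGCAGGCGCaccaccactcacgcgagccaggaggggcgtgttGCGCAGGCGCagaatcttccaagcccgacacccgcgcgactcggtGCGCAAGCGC
Ndufa9: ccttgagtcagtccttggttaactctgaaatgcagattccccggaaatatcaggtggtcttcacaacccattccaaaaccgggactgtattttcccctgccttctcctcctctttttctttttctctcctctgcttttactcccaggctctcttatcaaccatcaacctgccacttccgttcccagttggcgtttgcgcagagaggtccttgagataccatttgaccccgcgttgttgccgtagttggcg
Cox6b2: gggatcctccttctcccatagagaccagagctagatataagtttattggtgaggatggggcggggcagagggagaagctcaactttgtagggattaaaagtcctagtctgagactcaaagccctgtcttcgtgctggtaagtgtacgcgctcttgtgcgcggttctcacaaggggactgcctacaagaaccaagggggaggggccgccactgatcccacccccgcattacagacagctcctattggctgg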

How the data were processed

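Polyadenylated RNA of 19 CA1 samples was sequenced by the authors with 50-nt single-end reads. According to the labels, these were quality-checked with FastQC (0.11.5), aligned to mm10 with STAR (2.5.2b) and counted with featureCounts (Subread 1.5.1). The deposited files hold raw counts per gene. The annotation release and strandedness are not given in the sources used here, so overlapping genes cannot be separated. The authors also deposited a normalized log2 table, which equals log2(CPM + 1) less the product of a library's whole number and a gene's slope. It was used as an alternative and as the source of that number.

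Members and lists were chosen with earlier results of these data known. Genes with at least 5 counts in 50% of libraries were fitted with DESeq2 (1.42.0), the tool that the study's methods name. All groups were placed in one model here, with an adjusted p threshold of 0.05 over all genes. Log2 fold changes are unshrunken, with intervals of 1.96 SE. Normalized counts are counts divided by size factors. edgeR (4.0.16), limma (3.58.1), other size factors, filters and models and the omission of libraries were alternatives. The scripts were tested on simulated data. TPM and symbols used GENCODE M21, which matched 48349 of 48709 identifiers. Stretches of 50 bases were compared among M21 transcripts. Members named were the mitochondrial genes, those past the threshold, the 2 with the smallest p in each complex and genome in the comparisons of APP control with WT control and of APP anti-miR-mix with APP control, paralogs, the extremes per length, complex II and listed targets. Genes named beyond these were chosen after their values were seen. The closest libraries of a group had a chi-square per gene of 4.94, so all were kept as separate samples. Part of the genotype is not reported here.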

Additional observations from a re-analysis of the deposited data

Results flagged for a closer look

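Among the 147 sets of libraries of a single group that were examined, 7 had a library set apart from the rest by Dixon's criterion, or 4.76%, where chance gives about 5%. The normalized counts of these libraries, each beside the range of the others in its group, were as follows. Atp5l was at 178 in WT control 2 (others 88.8 to 119), and Cox5a was at 1802 in WT control 4 (others 1973 to 2040). Sdhb was at 3441 in WT control 5 (others 3651 to 3769). Atp5g3 was at 6794 in APP anti-miR-mix 2 (others 6134 to 6357) and Ndufs1 was at 4199 in the same library (others 3791 to 3966). Cox6b2 was at 93.6 in APP anti-miR-mix 6 (others 67.1 to 73.3), and Uqcrb was at 444 in APP anti-miR-mix 7 (others 499 to 541).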

How the results depend on the processing

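In all 32 alternatives no member passed between the 2 transgenic groups. In APP control against WT control, where none passed in the reported fit, 1 member passed with total-count size factors, with at least 10 counts in every library (both Cox7a2l) and with the whole number as a factor (Ndufa1), and 2 with limma on the deposited table (Cox7a2l, Ndufa1) and without WT control 1 and 5 (Cox7a2l, Ndufa9). Leaving out single libraries gave 0 to 2, with Ndufs1 passing without APP control 5 or 6 and Cox7a2l without APP control 6 or WT control 1. In APP anti-miR-mix against WT control the count of 4 became 2 with edgeR and with TMM factors (Ndufs1, Cox6b2), 1 with total-count size factors (Cox6b2), 2 on the deposited table (Cox4i2, Cox6b2) and 2 without WT control 5 and APP anti-miR-mix 6 (Ndufs1, Ndufa9). With the whole number as a factor it was 5 (Ndufs1, Ndufa9, Ndufa10, Atp5f1, Cox6a2), without Cox6b2 and Uqcrc2. Single libraries left out gave 1 to 7. It was 1, Ndufs1, without WT control 4, WT control 6 or APP anti-miR-mix 6. It was 2 without WT control 2 (Ndufs1, Uqcrc2) or without APP anti-miR-mix 4, 5 or 7 (Ndufs1, Cox6b2), and 7 without APP anti-miR-mix 2, which added Atp5a1, Atp5g3 and Sdhb. The cause of these changes was not tested.

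Replicate numbers did not pair the libraries, since same-numbered libraries of different groups had correlations from -0.13 to 0.35 and not all exceeded 0.1. Within each group the whole number of the deposited table is ordered as the replicate number is. With the replicate number as a block, 2 members passed in APP control against WT control (Cox7a2l, Ndufa1), 0 between the 2 transgenic groups, and 4 between WT control and APP anti-miR-mix, where Atp5f1 and Ndufa10 stood in place of Cox6b2 and Uqcrc2. Medians of the nuclear members stayed within the spread between libraries (SD 0.07), at -0.03 to 0.00 without single libraries, -0.03 without 2 libraries and -0.01 to 0.02 otherwise in APP control against WT control. Those of the mitochondrial members moved by less than their wide spread (SD 0.38) but changed sign. Without single libraries they ran from -0.03 to 0.11 in APP control against WT control, where the omission of APP control 4, 5 or 6 or of WT control 1 or 3 made them negative, and they were -0.05 with the whole number as a factor. Between the 2 transgenic groups they ran from -0.03 to 0.13 and were -0.01 with the replicate block. In APP anti-miR-mix against WT control they stayed above 0 in the settings run, from 0.015 to 0.19 without single libraries. The mitochondrial share of summed TPM was 11.3%, and 8.86% with the length of the longest transcript. Most tissue forms of complex IV have few counts, and the mitochondrial genes have wide standard errors.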
